A study of Saccharomyces cerevisiae with 5 samples.

Results

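The late 5′ external transcribed spacer (5′ ETS) of the budding yeast 35S pre-rRNA was described here, taken as all nucleotides that the files assign to the 5′ ETS with coordinates above 350 and up to 700, counted from the 5′ end of the transcript. These are 350 of the 9137 nucleotides of the rDNA repeat that the files cover, and the downstream 350 of the 700 nucleotides of the 5′ ETS. They lie on the minus strand at chrXII:466870-467219 as the files number it, the files name no genome build, and the bounds of the whole 5′ ETS equal those of ETS1-2 in the RefSeq table of assembly R64. Native elongating transcript sequencing (NET-seq) was used, in which the RNA bound to a precipitated polymerase is sequenced from its 3′ end, so that each count marks the last nucleotide of 1 RNA. There were 2 libraries labelled with the rpa190-F1205H genotype, a substitution in the trigger loop of the catalytic RNA polymerase I subunit Rpa190, and 3 WT libraries. In all 5, RNA polymerase I was precipitated through its subunit Rpa135 with a C-terminal HA and histidine tag, from cells grown in rich medium (YEPD). The sample titles of the mutant libraries write the substitution with another residue number, and the sample column inside those 2 files reads WT 1 and WT 2, so the genotype rests on the genotype label alone. RPA190 itself lies outside the measured repeat and could not be used to check it. The labels do not say whether libraries of a genotype came from separate cultures, so p-values measure only the spread between these libraries, which may be technical.

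As background, RNA polymerase I makes the 35S pre-rRNA, which is cut down to the mature 18S, 5.8S and 25S rRNAs, and the 5′ ETS is the leader that is removed from the 18S side. While the polymerase is still transcribing, the U3 small nucleolar RNP and many other factors assemble on the leader into the small subunit processome, which is needed for the cuts at A0 in the 5′ ETS, at A1 at the 5′ end of 18S and at A2 in ITS1. A polymerase that dwells at a nucleotide leaves many 3′ ends there in NET-seq. A cut RNA that stays with the polymerase would also give a 3′ end, and the counts alone cannot tell them apart.

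A0 lies 90 nt before the first nucleotide of 18S, so nt 610 is the last nucleotide before it. The 50 nt around the site (nt 586 to 635, chrXII:466935-466984, minus strand) are shown from the files, with nt 610 and nt 632 in capitals because these were the highest WT positions before and after the cut. The positions of highest mean share in either genotype follow, each with the 10 nt before it and the 5 nt after it and with the 3′ end itself in capitals.
A0 region: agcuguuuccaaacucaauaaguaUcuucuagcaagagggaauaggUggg
nt 368 (high in both), chrXII:467197-467212: gucgcaagacUgugau
nt 460 (high in rpa190-F1205H), chrXII:467105-467120: ggaaccugauUagagg
nt 499 (high in rpa190-F1205H), chrXII:467066-467081: ggugacggagUgcgcu
nt 504 (high in rpa190-F1205H), chrXII:467061-467076: cggagugcgcUgguca
nt 514 (high in rpa190-F1205H), chrXII:467051-467066: uggucaagagUguaaa
nt 406 (high in WT), chrXII:467159-467174: aaaucagcgaUaucaa
nt 442 (high in WT), chrXII:467123-467138: ccgggguaucUguuug
nt 544 (high in WT), chrXII:467021-467036: agagcauuucCggcag
nt 632 (high in WT), chrXII:466933-466948: agggaauaggUgggaa
All 5 of the highest positions in rpa190-F1205H end in U, and so do 4 of the 5 in WT. In each genotype 4 of the 5 are followed by G and the remaining 1 by A.

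The sense strand of the late 5′ ETS held 78609 and 11467 counts in the rpa190-F1205H libraries, against 7132, 5884 and 6506 counts in the WT libraries. The first mutant library was thus several times deeper than every other. Per nucleotide the median was 93 and 18 counts in rpa190-F1205H, against 6, 5 and 6 in WT, and 1 and 23 nucleotides had no count in rpa190-F1205H, against 43, 50 and 38 in WT. After thinning to equal totals over the 5′ ETS, the number of empty nucleotides averaged 49.8 and 38.9 in rpa190-F1205H, against 49.9, 50 and 39.95 in WT. A count of 0 in 1 library allows a share of the 5′ ETS of up to 0.00156% and 0.0112% in rpa190-F1205H, and up to 0.0194%, 0.0231% and 0.0220% in WT (3 counts of the total, counting error only). Within the region the WT libraries differed from one another by a chi-square per degree of freedom of 1.39 to 2.25 and the mutant libraries by 5.84, so none was treated as a repeat of another. This measure grows with counts, so the value of the deeper mutant pair cannot be compared with the WT values. With libraries thinned, Spearman's rho was 0.897 between the mutant libraries and 0.882 to 0.900 among the WT libraries.

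The first question was how much of the 5′ ETS signal lay in its late part. The late part held 40.8% and 42.9% of the 5′ ETS counts in the rpa190-F1205H libraries, against 46.2%, 45.4% and 47.6% in the WT libraries. Every mutant library lay below every WT library, and the widest 95% Wilson interval of a single library ran from 44.5% to 46.3%. The means were 41.9% ± 1.44 in rpa190-F1205H (SD, n = 2) and 46.4% ± 1.13 in WT (SD, n = 3), a difference of -4.55 percentage points (two-sided exact permutation p = 0.2). With 2 libraries against 3 there are 10 splits, and 0.2 is the smallest p this test can give. The mean positions, the shares of the 35S gene, the share around A0, the Gini coefficient, the share of the 10 highest positions and the number of pause sites below gave this same p. Along the whole 5′ ETS the count-weighted mean position was nt 313 ± 6.07 in rpa190-F1205H and nt 339 ± 5.06 in WT, and inside the late part it was nt 506 ± 1.49 in rpa190-F1205H and nt 516 ± 1.86 in WT. As a share of the whole 35S gene the late part was higher in the mutant, at 4.01% ± 0.295 in rpa190-F1205H and 1.36% ± 0.0389 in WT, a ratio of 2.94. The early part (nt 1 to 350) had 5.59% ± 0.740 in rpa190-F1205H and 1.57% ± 0.0331 in WT, a ratio of 3.55. All values below are shares of the 5′ ETS unless another total is named, so they show where within the leader the 3′ ends lay and not how many there were.

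**Figure D1:**
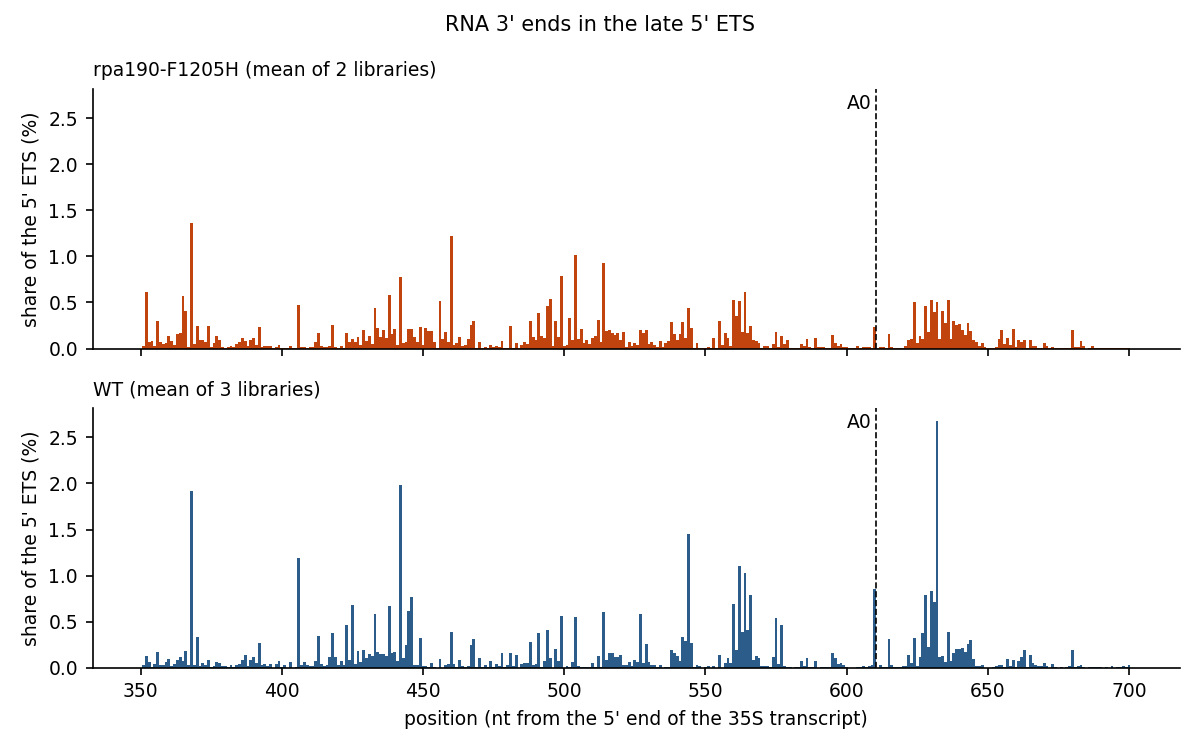
Mean share of the 5′ ETS counts (%) at each of the 350 nucleotides of the late 5′ ETS, in rpa190-F1205H (upper panel, 2 libraries) and WT (lower panel, 3 libraries). The dashed line is A0. The tallest WT bar, at nt 632, reached 2.68%, and the mutant bar there was 0.501%.

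Within the late 5′ ETS, some 50 nt windows gained share in rpa190-F1205H and others lost it. This balance changed with window size and scaling. In windows of 50 nt, fitted with edgeR's quasi-likelihood test over the 137 windows of the 35S gene that passed the count filter and scaled to the 5′ ETS total, 4 of the 7 windows of the late part rose in rpa190-F1205H and 3 fell (Benjamini-Hochberg adjusted p below 0.05), whereas all 7 were higher when scaled to the 35S total. On the 5′ ETS scale 7.3% of all 137 windows were called higher and 87.6% lower.

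The window ending at nt 450 fell most. It held 6.35% and 5.97% in the rpa190-F1205H libraries, against 10.9%, 11.4% and 11.4% in the WT libraries, with a log2 fold change of -0.86 ± 0.119 (SE, adjusted p = 3.18e-12 with edgeR). The next window, ending at nt 500, went the other way, with 7.42% and 8.34% in rpa190-F1205H against 4.47%, 4.21% and 4.99% in WT (0.79 ± 0.104, adjusted p = 3.03e-13 with edgeR). Neither window's libraries overlapped between the genotypes.

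The windows ending at nt 600 and nt 650 also fell. They held 4.92% ± 0.102 in rpa190-F1205H against 7.36% ± 0.414 in WT (-0.58 ± 0.107, adjusted p = 1.25e-07 with edgeR), and 7.00% ± 0.542 in rpa190-F1205H against 10.1% ± 0.60 in WT (-0.54 ± 0.116, adjusted p = 6.00e-06 with edgeR). The window that opens the region, up to nt 400, rose to 6.39% ± 0.0808 in rpa190-F1205H, against 5.01% ± 0.293 in WT (0.35 ± 0.102, adjusted p = 7.17e-04 with edgeR).

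The remaining 2 windows passed the threshold with libraries that overlapped between genotypes. The window ending at nt 550 held 7.29% and 8.27% in rpa190-F1205H, against 6.62%, 5.65% and 7.63% in WT (log2 fold change 0.23, adjusted p = 0.0390 with edgeR). The window ending at nt 700, next to 18S, held 1.89% and 1.60% in rpa190-F1205H, against 1.5%, 1.31% and 1.71% in WT (0.22, adjusted p = 0.0312 with edgeR). Neither call held when any of several single libraries was left out. The first was lost without WT replicate 1 or 2 or without either mutant library (adjusted p from 0.0706 to 0.388 with edgeR), and the second without WT replicate 2 or mutant replicate 1 (adjusted p = 0.309 and 0.593 with edgeR). The second also ended under DESeq2 (adjusted p = 0.127) and in a fit over the 5′ ETS alone (adjusted p = 0.265 with edgeR). The last 50 nt before 18S, of which 30 are U, were the emptiest stretch in both genotypes. Their mean share per nucleotide was 0.0348% ± 0.00409 in rpa190-F1205H and 0.0301% ± 0.00394 in WT (two-sided exact permutation p = 0.4). Over the other 300 nt it was 0.134% ± 0.00548 in rpa190-F1205H and 0.15% ± 0.00312 in WT.

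**Figure D2:**
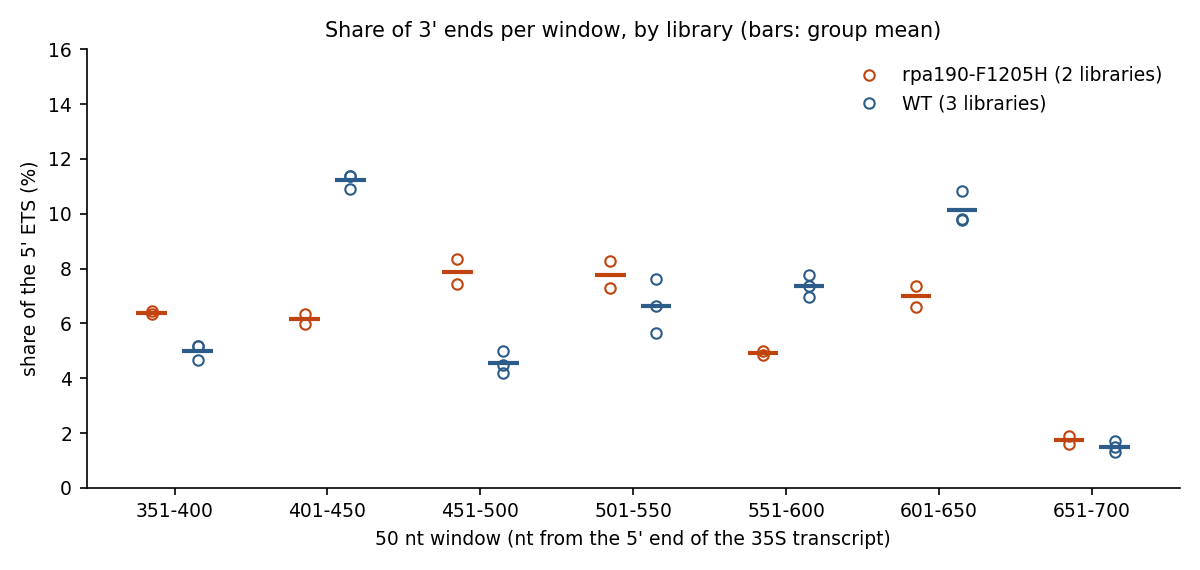
Share of the 5′ ETS counts (%) in each 50 nt window of the late 5′ ETS, named by its first and last nucleotide, with 1 circle per library and a bar at the group mean, rpa190-F1205H to the left of WT. The genotypes lie farthest apart in the window ending at nt 450, where the means were 6.16% in rpa190-F1205H and 11.2% in WT.

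These directions are those of shares within the 5′ ETS. Scaled to the 35S total with TMM factors (edgeR's correction that centres most positions of the gene), all 7 windows were higher in rpa190-F1205H and none lower, against 40.9% higher and 40.9% lower among all windows. The 3 windows that fell above then had log2 fold changes of 0.47, 0.74 and 0.78 from the 5′ side on. The window ending at nt 500 stood at 2.11.

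The stretch around A0 held a smaller share in both mutant libraries. The 50 nt around the cut held 5.0% and 5.14% of the 5′ ETS counts in the rpa190-F1205H libraries, against 8.26%, 9.33% and 8.35% in the WT libraries. The means were 5.07% ± 0.10 in rpa190-F1205H and 8.65% ± 0.593 in WT, a difference of -3.58 percentage points with no overlap between genotypes. The 25 nt before the cut held 0.952% ± 0.166 in rpa190-F1205H and 1.62% ± 0.139 in WT, and the 25 nt after it 4.12% ± 0.0654 in rpa190-F1205H and 7.03% ± 0.681 in WT, so the ratio of mutant to WT was 0.588 before and 0.586 after. Most of the difference lay at 2 nucleotides, picked as the highest WT positions before and after the cut. Leaving out WT peaks by itself tends to narrow the difference. Without nt 610 and nt 632 the 50 nt held 4.34% ± 0.133 in rpa190-F1205H and 5.11% ± 0.406 in WT, a difference of -0.769 points. Of the 20 nucleotides around A0 that passed the count filter 8 fell and 3 rose. Over the 5452 positions of the 35S gene tested on this scale 11.6% rose and 68.4% fell.

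The last nucleotide before the cut, U at nt 610 (chrXII:466960), had 398 and 67 counts in the rpa190-F1205H libraries, against 125, 114 and 121 counts in the WT libraries. These were shares of 0.207% and 0.251% in rpa190-F1205H and of 0.810%, 0.880% and 0.886% in WT, and nt 610 fell (log2 fold change -1.93 ± 0.244, adjusted p = 2.24e-08 with edgeR). The WT peak was 1 nucleotide wide. Its neighbours nt 608, 609, 611 and 612 had 25, 20, 4 and 58 counts in mutant replicate 1 and 5, 1, 0 and 2 in mutant replicate 2, while no WT library had more than 5 counts at any of them, and none of the 4 passed the count filter. Relative to the whole 35S gene nt 610 held 0.0218% ± 6.03e-04 in rpa190-F1205H and 0.0252% ± 0.00102 in WT. Scaled that way without further factors its change was -0.21 and did not pass (adjusted p = 0.372 with edgeR), whereas with TMM factors it was -0.64 (adjusted p = 0.00990 with edgeR).

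The highest WT position of the region was U at nt 632, 22 nt past nt 610, and picking it for its WT share favours a fall. It held 0.546% and 0.456% in the rpa190-F1205H libraries, against 2.77%, 2.96% and 2.31% in the WT libraries, and it fell by 2.41 on the log2 scale (SE 0.242, adjusted p = 2.78e-10 with edgeR). It was lower under every scaling tried, by 0.68 when scaled to the 35S total (adjusted p = 0.00801 with edgeR). Past it stand 3 G nucleotides. G at nt 633 had 0.0629% and 0.138% in rpa190-F1205H, against 0.0972%, 0.131% and 0.124% in WT, and was not called (log2 fold change -0.38 ± 0.372, adjusted p = 0.351 with edgeR), while the following 2 rose. At nt 634 the shares were 0.321% and 0.501% in rpa190-F1205H, against 0.104%, 0.154% and 0.124% in WT (log2 fold change 1.66 ± 0.286, adjusted p = 4.51e-06 with edgeR). At nt 635 they were 0.255% and 0.303% in rpa190-F1205H, against 0.0518%, 0.0926% and 0.0366% in WT (2.20 ± 0.342, adjusted p = 8.56e-07 with edgeR). All 3 were chosen for description after their values were seen. At nt 635 too few WT libraries reached the level of the count filter. It was tested because of the mutant libraries, and its adjusted p adds no independent support.

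**Figure D3:**
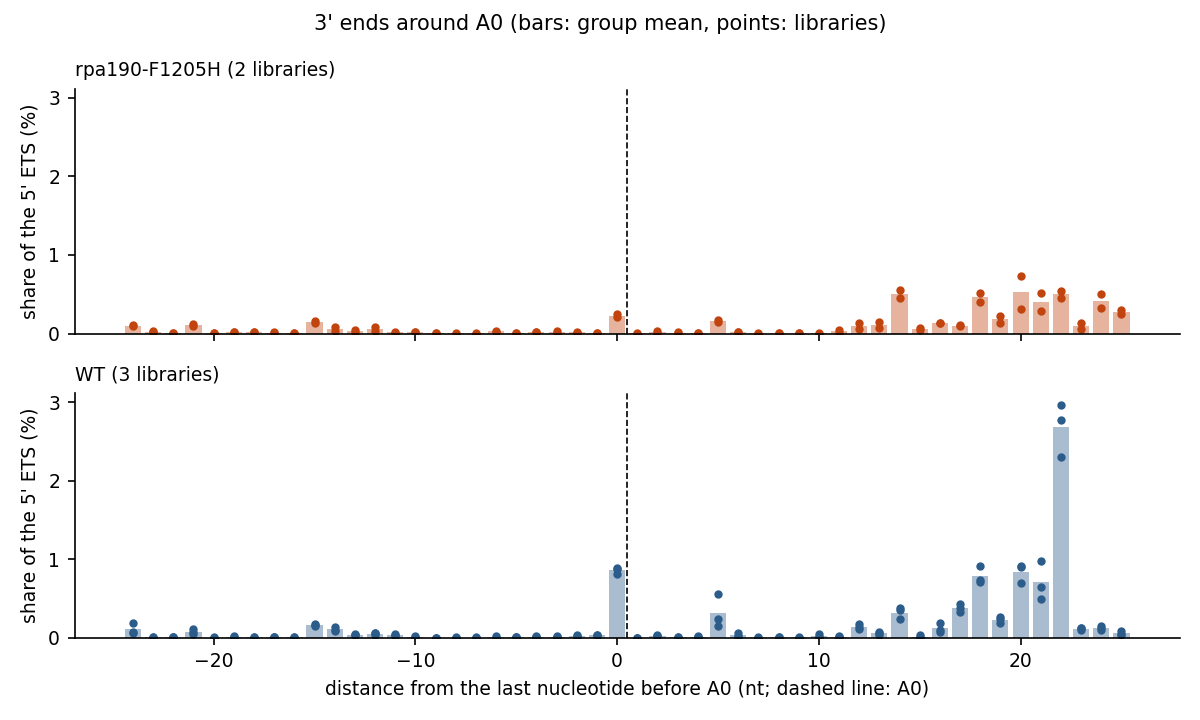
Share of the 5′ ETS counts (%) at each of the 50 nucleotides around A0, against the distance in nt from the last nucleotide before the cut, with bars at the group mean and 1 point per library. WT has single-nucleotide peaks at 0 (0.859%) and 22 nt (2.68%), where the rpa190-F1205H means were 0.229% and 0.501%.

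The highest positions were partly shared. U at nt 368 was the highest position in rpa190-F1205H and the third highest in WT, with 1.76% and 0.965% in the rpa190-F1205H libraries, against 2.05%, 1.87% and 1.82% in the WT libraries. It did not pass the test (log2 fold change -0.47 ± 0.239, adjusted p = 0.0697 with edgeR), and mutant replicate 1 decides that. Without it the change was -0.99 (adjusted p = 1.14e-05 with edgeR).

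The other 4 leading mutant positions lay between nt 460 and nt 514 and all rose. They were picked for their high mutant share, which favours a rise, so their adjusted p-values add no independent support. U at nt 460 had 1.33% and 1.10% in rpa190-F1205H, against 0.421%, 0.386% and 0.373% in WT (1.63 ± 0.231, adjusted p = 1.68e-07 with edgeR). U at nt 504 had 1.11% and 0.920% in rpa190-F1205H, against 0.538%, 0.586% and 0.535% in WT (0.89 ± 0.226, adjusted p = 6.94e-04 with edgeR). At nt 514 and nt 499 the changes were smaller, at 0.62 ± 0.229 and 0.48 ± 0.225 (adjusted p = 0.0140 and 0.0490 with edgeR). The call at nt 499 ended without any single WT library (adjusted p from 0.0977 to 0.184 with edgeR) and that at nt 514 without WT replicate 2 (adjusted p = 0.124 with edgeR). The call at nt 499 also ended under DESeq2 (adjusted p = 0.0831).

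The leading WT positions other than nt 368 all fell. They were picked for their high WT share, which favours a fall, so their adjusted p-values add no independent support. U at nt 442 had 0.894% and 0.658% in rpa190-F1205H, against 2.17%, 2.11% and 1.68% in WT (-1.34 ± 0.235, adjusted p = 5.77e-06 with edgeR). C at nt 544 had 0.454% and 0.415% in rpa190-F1205H, against 1.46%, 1.20% and 1.71% in WT (-1.74 ± 0.240, adjusted p = 1.12e-07 with edgeR). U at nt 406 had 0.524% and 0.419% in rpa190-F1205H, against 0.927%, 1.18% and 1.47% in WT (-1.32 ± 0.244, adjusted p = 1.29e-05 with edgeR). Relative to the 35S total, nt 442 and nt 406 were at 0.39 and 0.41 instead, and neither passed (adjusted p = 0.119 and 0.113 with edgeR). On that scale nt 544 was at -0.01 and did not pass either (adjusted p = 0.958 with edgeR).

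Across the members, 178 of the 350 nucleotides passed the filter on low counts and 172 did not. Of the 178, 54 rose in rpa190-F1205H (30.3%), 41 fell (23.0%) and 83 were not called. Some of the rises, such as nt 354 and nt 361, passed the filter through the mutant libraries alone. Some of the falls, such as nt 417 and nt 419, passed it through the WT libraries alone. Over all 5452 positions tested in the 35S gene 11.6% rose and 68.4% fell. A mixed balance was also seen in the early 5′ ETS, where 85 of 199 tested positions rose (42.7%) and 49 fell (24.6%). The median log2 fold change of these 178 was 0.01, beside -1.44 over all 5452 positions tested. With no filter, 71 of the 350 rose and 55 fell. Under TMM scaling 164 of 211 tested positions of the region were higher and 6 lower, beside 35.5% and 33.8% of all positions, and scaled to the 35S total 195 of 226 were higher and 2 lower, beside 46.3% and 20.9%. In the window ending at nt 450, 1 of 33 tested positions rose and 15 fell, and in the window ending at nt 500, 14 of 29 rose and 3 fell. In the windows ending at nt 400 and nt 550, 13 of 26 and 14 of 31 rose, and 1 and 3 fell.

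**Figure D4:**
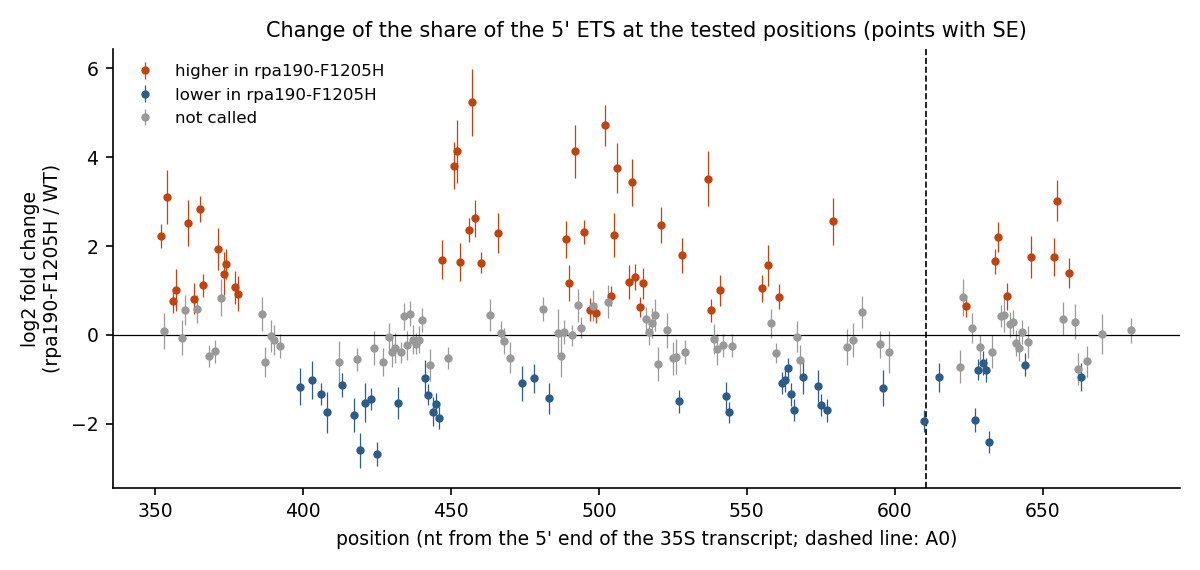
Log2 fold change of the share of the 5′ ETS (rpa190-F1205H over WT) with its SE at the 178 tested nucleotides of the late 5′ ETS, coloured by edgeR call. Of these, 54 were called higher and 41 lower, and the window ending at nt 450 holds 15 of the lower ones.

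The 6 largest rises at positions where every mutant library exceeded every WT library all lay between nt 451 and nt 506, and 5 of them were G. All 6 passed the count filter through the mutant libraries alone, because their WT counts were too low for it. Their adjusted p-values therefore add no independent support. The flanks of these positions are shown because most share the base at the 3′ end, with 10 nt before it and 5 nt after it.
nt 451, chrXII:467114-467129: cuguuuggugGaaccu
nt 452, chrXII:467113-467128: uguuugguggAaccug
nt 457, chrXII:467108-467123: gguggaaccuGauuag
nt 492, chrXII:467073-467088: augguaugguGacgga
nt 502, chrXII:467063-467078: gacggagugcGcuggu
nt 506, chrXII:467059-467074: gagugcgcugGucaag
Of the 6, 4 are followed by A and none by G.

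G at nt 502 had 494 and 107 counts in the rpa190-F1205H libraries, against 1, 1 and 3 counts in the WT libraries. Its mean share was 0.328% ± 0.101 in rpa190-F1205H and 0.0121% ± 0.00861 in WT (log2 fold change 4.72 ± 0.467, adjusted p = 1.99e-10 with edgeR), and without WT replicate 3, which held 3 of its 5 WT counts, the change was 5.46. G at nt 457 had 187 and 27 counts in rpa190-F1205H and 0, 1 and 0 in WT, a ratio of pooled shares of 41.1 (95% counting interval 7.29 to 1629). G at nt 492 had 213 and 43 counts in rpa190-F1205H and 0, 1 and 2 in WT, a ratio of 16.4 (5.54 to 79.9). The fitted log2 fold change at nt 492 was 4.14, or 3.51 without WT replicate 1 and 5.13 without WT replicate 3. At nt 457 it was 5.24, or 4.64 without WT replicate 1, and without WT replicate 2 no WT count was left.

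The other 3 rested on few WT counts as well. G at nt 451 had 240 and 84 counts in rpa190-F1205H, against 1, 2 and 3 in WT (3.82 ± 0.538). A at nt 452, the next nucleotide, had 142 and 83 counts in rpa190-F1205H, against 2, 2 and 0 in WT (4.13 ± 0.700), and G at nt 506 had 229 and 81 in rpa190-F1205H against 4, 2 and 0 in WT (3.76 ± 0.568). The adjusted p of these 3 was 1.61e-07, 3.44e-06 and 5.30e-07 with edgeR. At nt 452 the mutant libraries themselves lay 0.0738% and 0.310% apart in share, and the change was 4.93 without mutant replicate 1 and 2.93 without mutant replicate 2. Without mutant replicate 2 it was 3.11 at nt 451 and 3.04 at nt 506, and without WT replicate 1 it was 4.68 at nt 506. All of these changes kept their call with each WT library left out in turn. Those refits reuse the same low WT counts, so they add no independent support. A further 2 G nucleotides, nt 556 and nt 496, had no WT count and did not pass the filter. They had 73 and 10 counts and 62 and 7 counts in the rpa190-F1205H libraries, and were at least 5.28-fold and at least 4.09-fold higher when 3 counts were assumed over the 3 WT libraries together.

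The 6 largest falls included no G. They were U at nt 425 (-2.68 ± 0.260), A at nt 419 (-2.60 ± 0.394), U at nt 632, U at nt 610, A at nt 627 (-1.91 ± 0.267) and U at nt 446 (-1.87 ± 0.248). A at nt 419 passed the count filter through the WT libraries alone, because its mutant shares were too low for it. At nt 425 the shares were 0.114% and 0.0898% in rpa190-F1205H, against 0.622%, 0.671% and 0.747% in WT (adjusted p = 1.40e-10 with edgeR). The 6 lower calls under TMM scaling were these same positions, and the 2 lower calls under scaling to the 35S total were nt 425 (-0.92, adjusted p = 0.00120 with edgeR) and nt 632.

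The second question was at which base the 3′ ends lay. G was the last base of 21.2% and 21.4% of the late 5′ ETS signal in the rpa190-F1205H libraries, against 9.89%, 12.3% and 8.88% in the WT libraries, while G makes up 23.4% of the 350 nucleotides. The means were 21.3% ± 0.0886 in rpa190-F1205H and 10.3% ± 1.73 in WT, a difference of 10.95 percentage points. U ended 40.6% ± 3.83 of the signal in rpa190-F1205H and 49.9% ± 0.463 in WT, and C ended 10.96% ± 0.504 in rpa190-F1205H and 13.7% ± 1.3 in WT. The exact permutation p was 0.2 for G, U and C, or 0.267 after Benjamini-Hochberg adjustment over the 4 bases. A ended 27.1% ± 4.24 in rpa190-F1205H and 26.0% ± 0.796 in WT (exact permutation p = 0.8). The mutant libraries disagreed on A, with 24.1% and 30.1%, below and above the WT libraries, so the difference at A of 1.12 points was 4.12 without mutant replicate 1 and -1.88 without mutant replicate 2. In the early 5′ ETS, G ended 24.3% ± 0.578 in rpa190-F1205H and 9.12% ± 0.546 in WT.

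Counted by position, 26 of 39 tested G nucleotides rose and 2 fell. The G positions among the largest rises are counted here, and they passed the filter through the mutant libraries alone. Other counted G positions did so too, among them nt 354, nt 361 and nt 371. The filter therefore favours G positions that are high in rpa190-F1205H, and this count of rises adds no independent support. Of the 57 tested A nucleotides 13 rose and 11 fell, while among 23 C nucleotides there were 4 rises and 8 falls, and among 59 U nucleotides 11 rises and 20 falls. Over all 82 G nucleotides, tested or not, both mutant libraries lay above all WT libraries at 47 and below them at 1. Over all 103 U nucleotides the same counts were 21 and 29, over the 103 A nucleotides 20 and 22, and over the 62 C nucleotides 12 and 17. Over all 350 nucleotides of the region they were 100 and 69. They were not counted over the 35S gene, where 11.6% of tested positions were called higher and 68.4% lower on this scale. The 2 G nucleotides that fell, nt 630 and nt 631, stand just before nt 632 and their libraries overlapped between genotypes.

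The base that follows the 3′ end was measured as well. G came next after 41.7% ± 3.74 of the signal in rpa190-F1205H and 48.3% ± 1.91 in WT, although only 23.4% of the nucleotides are followed by G. A came next after 33.3% ± 1.87 in rpa190-F1205H and 27.3% ± 0.544 in WT, and U after 11.1% ± 0.274 in rpa190-F1205H and 12.0% ± 0.493 in WT. The exact permutation p was 0.2 for G, A and U alike, the smallest this test can give. At 23 nucleotides a U is followed by G, and these held 20.9% ± 3.14 of the late signal in rpa190-F1205H and 29.2% ± 2.15 in WT, a pair chosen after the leading positions were seen. The base before the 3′ end was U for 18.1% ± 0.472 of the signal in rpa190-F1205H and 16.1% ± 1.19 in WT (exact permutation p = 0.2), beside 29.1% of the nucleotides.

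**Figure D5:**
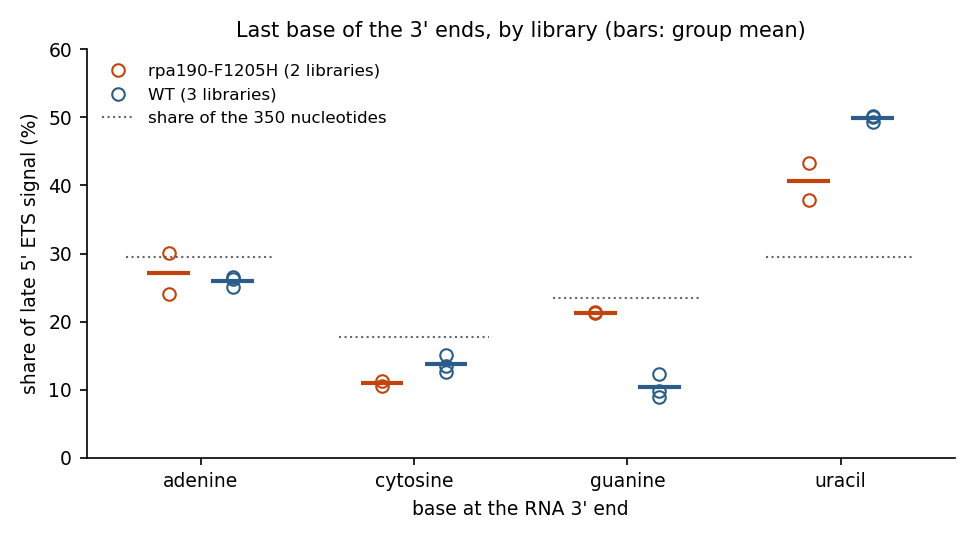
Share of the late 5′ ETS signal (%) whose 3′ end is each base, with 1 circle per library and a bar at the group mean, rpa190-F1205H to the left of WT. Dotted lines give the share of the 350 nucleotides. At guanine the rpa190-F1205H mean was 21.3% and the WT mean 10.3%, and the region holds 23.4% G.

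The unevenness of the profile was compared next. After thinning each library to 12960 counts over the 5′ ETS, the Gini coefficient, which is 0 for an even profile and near 1 when few positions hold all counts, was 0.668 and 0.621 in the rpa190-F1205H libraries, against 0.734, 0.735 and 0.709 in the WT libraries. Both mutant libraries lay below all WT libraries. Without thinning, the 10 highest positions of each library held 23.3% and 18.2% of the late signal in rpa190-F1205H, against 31.2%, 31.5% and 27.6% in WT. This share was not adjusted for depth, and the WT libraries had fewer counts. Pause sites, taken as positions with 10 or more thinned counts and a count over 3 SD above the mean of the flanking 100 nt to either side, numbered 10.25 and 8.40 in rpa190-F1205H, against 6, 7 and 5.05 in WT (means of 20 draws). With 4 SD in place of 3 the difference in the number of sites was 0.408 in place of 3.31 (exact permutation p = 0.8).

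Few of the sites were shared. U at nt 368 was the only site called in every library, in at least 10 of the 20 draws. In both mutant libraries and no WT library there were 4 sites, U at nt 460, 499, 504 and 514. C at nt 544 was called in all 3 WT libraries and neither mutant library, and nt 442 and nt 632 in all WT libraries and 1 mutant library. Around nt 632, past A0, nt 624, 628, 630, 631, 634 and 636 were each called in 1 mutant library and no WT library. A call there did not need a larger share, since nt 630 held 0.525% in rpa190-F1205H and 0.837% in WT. Spearman's rho over the 350 nucleotides, with libraries thinned, was 0.897 between the mutant libraries, 0.882 to 0.900 among the WT libraries and 0.728 to 0.771 across genotypes, as a description over positions that are not replicates.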

How the data were processed

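The values are counts of RNA 3′ ends per nucleotide and strand of 1 rDNA repeat, deposited by the authors, 1 table per library, and they are whole numbers that were not normalised. The tools named, per the submitters' processing notes, are SAMtools 1.3.1, BWA 0.6, Trim Galore 0.4.1 and bcl2fastq 2.18.0.012. Their settings, the genome build, and the treatment of duplicates and of reads shared by the near-identical rDNA repeats were not given in the sources used here, so signal could not be assigned to 1 repeat. PCR duplicates may remain, and intervals and floors cover counting error only. Sequences were read from the base column of the tables.

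Sense counts were set relative to the total over nt 1 to 700. All positions of the 35S gene, and all 50 nt windows, were fitted with edgeR 4.0.16 in R 4.3.3 (quasi-likelihood test, filterByExpr, library size the 5′ ETS total, no factors, no block, Benjamini-Hochberg threshold 0.05 over the whole gene). The SE was computed as |log2 fold change| over √F. A positive log2 fold change is higher in rpa190-F1205H. Single values per library went through a two-sided exact permutation test (Python 3.11.15, SciPy 1.17.1). The fit and the pause caller were tested on simulated data, with a fixed dispersion and an even background, respectively. Those settings are simpler than the real profiles and do not cover changes at positions with almost no WT counts. Named positions were the 5 of highest mean share in each genotype, the 6 of largest and the 6 of smallest log2 fold change past the threshold without overlap between genotypes, those within 2 nt of nt 610, and the 7 windows. The region, the rules and the tests were chosen with earlier results of these data known. Alternatives covered the scaling, the DESeq2 1.42.0 test, the filter, window size, region bounds, a ceiling on high counts, the base offset, the pause definition, the replicate block and each library left out.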

Additional observations from a re-analysis of the deposited data

How the results depend on the processing

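The directions of the late share, the mean position, the share around A0, the Gini coefficient and the number of pause sites held under every alternative run. With each library left out the late share differed by -5.57 to -3.53 percentage points and the share around A0 by -3.77 to -3.24. The scaling decides the balance of calls. Positions called higher numbered 54 as reported, 164 with TMM factors, 195 scaled to the 35S total and 159 with DESeq2 size factors, and positions called lower 41, 6, 2 and 6 in the same order. Windows called higher numbered 4 as reported and 7 under each of these scalings, and lower 3 and 0. With 70 nt windows 1 was higher, and with 25 nt windows 7 were lower. With each library left out, 2 to 4 windows were higher. On those 3 scalings, in the same order, nt 368 was at 0.85, 1.27 and 0.80, the window ending at nt 450 at 0.47, 0.85 and 0.49, that ending at nt 600 at 0.74, 1.13 and 0.77, and that ending at nt 650 at 0.78, 1.17 and 0.81. Scaled to the 35S total nt 406 was at 0.41 and nt 442 at 0.39. Relative to the 5′ ETS total these had all been negative, and the turn follows from the larger mutant share of the whole 5′ ETS.

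The base results changed with the nucleotide counted. At 1 nucleotide upstream the difference was -1.58 points at A, 1.74 at G and 2.01 at U. At 1 nucleotide downstream it was 6.03 at A, 1.40 at C and -6.56 at G. With positions weighted equally the difference at the last base shrank to 3.11 at G and -1.99 at U, and was -1.27 at A and 0.145 at C. With each library left out it was -1.88 to 4.12 at A. The cause was not tested.

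Replicate numbers are shared between genotypes, but same-numbered libraries did not deviate together over the 350 nucleotides (r = 0.0109 for number 1 and -0.0582 for number 2). With the replicate block 51 positions were higher and 38 lower, and 4 windows were higher and 3 lower, and of the named calls nt 499 alone was lost (adjusted p = 0.0941 with edgeR). Depth limits the low positions: WT libraries had a median of 5 or 6 counts per nucleotide.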

Other observations

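Runs of a single base inside the late 5′ ETS did not all carry the same balance. The run of 5 A at nt 562 to 566 held 1.71% ± 0.295 of the 5′ ETS counts in rpa190-F1205H (SD, n = 2) and 3.72% ± 0.468 in WT (SD, n = 3). The runs of 5 U at nt 523 to 527 and nt 571 to 575 held 0.406% ± 0.0244 and 0.282% ± 0.0556 in rpa190-F1205H, against 0.817% ± 0.145 and 0.717% ± 0.0714 in WT. The run of 11 A at nt 636 to 646, just past the peak at nt 632, held 2.05% and 2.82% in rpa190-F1205H, against 2.12%, 2.04% and 2.15% in WT, with the mutant libraries on either side of most of the WT values. The run of 6 U at nt 665 to 670 held 0.210% ± 0.0410 in rpa190-F1205H and 0.315% ± 0.0388 in WT. The only G run among the 6 described here, the 4 at nt 434 to 437, held 0.774% and 0.550% in rpa190-F1205H, against 0.642%, 0.718% and 0.432% in WT. These libraries overlapped, unlike those of G as last base over the whole region. Shorter stretches of G were not counted as runs, among them the one just past nt 632, where single G positions rose. None of these 6 runs was tested.

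Antisense counts over the region were few, at 109 and 23 in the rpa190-F1205H libraries and 28, 7 and 10 in the WT libraries. Per 100 sense counts this was 0.139 and 0.201 in rpa190-F1205H, against 0.393, 0.119 and 0.154 in WT, and the genotypes overlapped (exact permutation p = 1.0).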
